A study of Mus musculus with 6 samples.

Results

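The neuregulins, the epidermal growth factor (EGF) ligands and the ErbB receptors of cultured Schwann cells (SCs) were examined as a set of 10 genes, the receptors *Egfr*, *Erbb2* and *Erbb3*, the neuregulins *Nrg1* and *Nrg2*, and the EGF ligands *Btc*, *Hbegf*, *Tgfa*, *Areg* and *Ereg*. The genes were taken by symbol through their Ensembl identifiers, and all 10 were found among the 55401 genes of the count table. Bulk RNA-seq was made of primary SCs grown from the dorsal root ganglia of adult C57BL/6 mice, 3 cultures from WT mice and 3 from *Plxnb1*-/- mice, which carry a transmembrane-lacZ-neo gene trap cassette in the *Plxnb1* locus as a germline allele. The labels call the controls WT, while the methods allow heterozygous littermates as controls in the study at large. All 6 cultures grew on poly-L-lysine and laminin in medium with 2 µM forskolin, which raises cyclic AMP, 10 nM neuregulin and 10% serum, were depleted of fibroblasts with an antibody to Thy1, and were used at passages 3 to 5 with a stated SC purity above 80%. Every library therefore comes from cells that were given an ErbB3 ligand as protein, which RNA counts do not measure. The sources used here do not say whether the cultures of a genotype came from separate mice, so p-values measure the spread between cultures.

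ErbB receptors are tyrosine kinases that pair when they bind ligands of the EGF family. Neuregulin-1 on axons binds ErbB3 on SCs, ErbB3 has little kinase activity of its own and signals through its partner ErbB2, which has no known ligand, and this pair drives the survival, proliferation, migration and myelination of SCs. The other ligands, such as amphiregulin and TGF-alpha, act mainly through EGFR, while HB-EGF, betacellulin and epiregulin also bind ErbB4. Plexin-B1 can associate with ErbB2 in other cell types. The question of the comparison was how the loss of Plexin-B1 changes the transcripts of SCs.

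*Plxnb1* itself stood at 61.8, 45.4 and 96.4 CPM (counts per 1000000 of the TMM-scaled library size) for the WT replicates (1, 2 and 3) against 13.1, 16.6 and 18.6 CPM for the *Plxnb1*-/- replicates (1, 2 and 3), so the genotypes did not overlap (log2 fold change -2.08, adjusted p = 0.0449 from edgeR and 2.74e-06 from DESeq2). Exons before the trap can still be transcribed. Each library had between 59252048 and 77280964 counts in all, and 3 counts, taken as the limit of detection, correspond to between 0.0383 and 0.0513 CPM, counting error only. All 10 genes of the set passed the filter on low values, a count of 2 or more in 5 or more libraries, which left 22318 genes. Of 7 SC markers all 7 were present, and their summed level was between 1930.4 and 2576 CPM. On the first principal component the WT replicates (1, 2 and 3) scored -3.58, -47.4 and -7.52. The *Plxnb1*-/- replicates (1, 2 and 3) scored 10.3, 14.1 and 34.0, so this axis separated the genotypes. WT replicate 2 and *Plxnb1*-/- replicate 3 were its 2 ends, and values without them are given where they matter. Leaving out both also removes the cultures of the genotypes that lay farthest apart on this axis, so it is not a neutral check. WT replicate 2 also had the highest summed level of 6 fibroblast markers, 1109 CPM, against 767 to 887 CPM in the other WT cultures and 781 to 789 CPM in the *Plxnb1*-/- cultures, and the lowest sum of SC markers, 1930.4 CPM.

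By edgeR's quasi-likelihood test, with Benjamini-Hochberg adjustment over all tested genes and calling a gene at an adjusted p under 0.05 with a log2 fold change of more than 0.25 in either direction, 0 of the 10 genes were called, as against 0.0358% of all tested genes (0.00448% higher and 0.0314% lower). At an unadjusted p below 0.05 there were 5 of the 10, *Nrg1*, which was lower in *Plxnb1*-/- SCs, and *Erbb2*, *Erbb3*, *Btc* and *Tgfa*, which were higher, against 13.7% of all tested genes (6.95% higher and 6.78% lower). DESeq2, the tool the study's methods name, called 1 of the 10, *Nrg1*, and gave no adjusted p for *Nrg2*, against 1.50% of all tested genes (0.690% higher and 0.811% lower). The genotypes did not overlap in 4 of the 10 genes, *Erbb2*, *Btc* and *Tgfa* with every *Plxnb1*-/- culture higher (9.30% of all tested genes) and *Nrg1* with every *Plxnb1*-/- culture lower (10.4%). The median log2 fold change of the 10 genes was 0.09, with 5 higher and 5 lower, and that of all tested genes was 0.00.

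**Figure D1:**
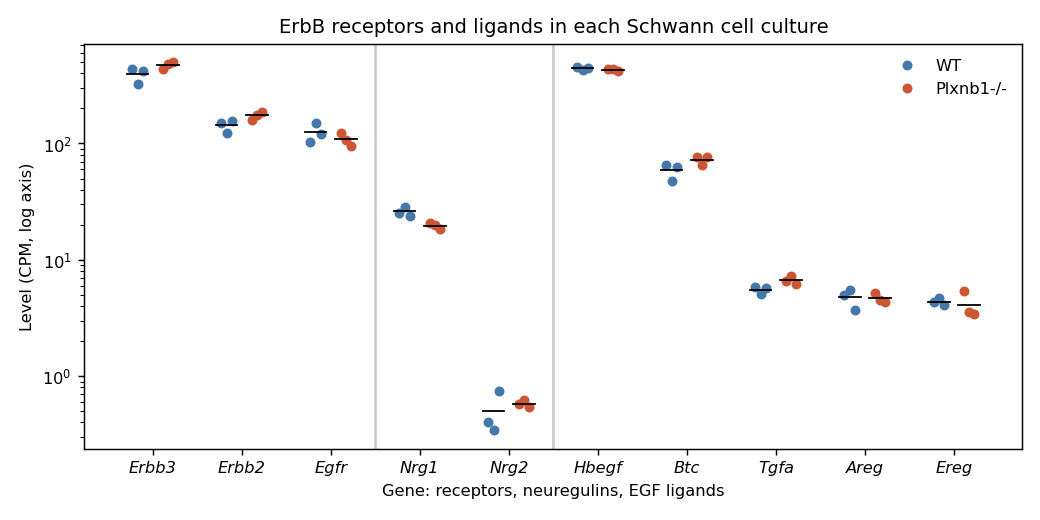
Level of each gene in CPM on a log axis, with 1 point per culture, WT in blue and *Plxnb1*-/- in red, and a black line at the mean of each 3 cultures. *Hbegf* and *Erbb3* stand at 324 CPM or above in every culture and *Nrg2* below 1 CPM, and the 3 *Plxnb1*-/- points of *Nrg1* lie below the 3 WT points.

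*Nrg1*, the ligand that SCs receive from axons and can also make themselves, is read from the minus strand of chromosome 8 (GRCm38, 31814551 to 32884029). Its level was 25.5, 28.6 and 24.0 CPM for the WT replicates (1, 2 and 3) against 20.6, 19.8 and 18.5 CPM for the *Plxnb1*-/- replicates (1, 2 and 3). Every *Plxnb1*-/- culture was thus lower than every WT culture, and the mean was 26.1 ± 2.33 CPM for WT against 19.6 ± 1.05 CPM for *Plxnb1*-/- SCs (SD, n = 3). The log2 fold change was -0.41 (standard error 0.07, 95% interval -0.57 to -0.24), a level 0.755 times that of WT. Its unadjusted p of 0.000414 was rank 42 among the 22318 tested genes, 0.188% of which had a p at or below it, and its adjusted p was 0.220 from edgeR's quasi-likelihood test. DESeq2 gave the same fold change with an adjusted p of 0.00116. Without the filter on low counts, edgeR gave an adjusted p of 0.0147 and called 0.949% of the 31191 genes then tested. The difference lay between -0.46 and -0.33 in edgeR's fits with each culture left out in turn and was -0.29 without both WT replicate 2 and *Plxnb1*-/- replicate 3. With DESeq2 the adjusted p of *Nrg1* was 0.0727 without *Plxnb1*-/- replicate 3, which ends the call, and between 0.00122 and 0.0272 without any of the others. The counts are sums over the exons of the gene, so the type I, II and III forms of neuregulin-1 were not told apart. A share of 4.7% of its merged exons overlaps a long noncoding RNA gene, Gm26578, on the opposite strand, and the strand setting of the counting is not given, so reads of this stretch cannot be told apart.

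*Nrg2*, a neuregulin that binds ErbB3 and ErbB4 and lies on chromosome 18, had the lowest level of the set. It had 26, 20 and 53 counts in WT replicates 1, 2 and 3 and 45, 45 and 38 counts in *Plxnb1*-/- replicates 1, 2 and 3, which is 0.342 to 0.748 CPM in WT and 0.548 to 0.621 CPM in *Plxnb1*-/- SCs. WT replicate 3 lay above all *Plxnb1*-/- cultures and the other WT cultures below them, and exact 95% Poisson intervals, which cover counting error only, were 0.209 to 0.528 CPM for WT replicate 2 and 0.561 to 0.979 CPM for WT replicate 3. No difference was called (log2 fold change 0.20, 95% interval -0.47 to 0.88, adjusted p = 0.807 from edgeR), and the log2 fold change was 0.63 without WT replicate 3 and 0.00 without WT replicate 2.

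*Erbb3*, the neuregulin receptor, lies on the minus strand of chromosome 10 from 128567523 to 128589652. Levels of it were 433, 324 and 419 CPM for the WT replicates (1, 2 and 3) against 433, 485 and 498 CPM for the *Plxnb1*-/- replicates (1, 2 and 3). WT replicate 2 was the lowest of the 6, and the genotypes met at WT replicate 1 and *Plxnb1*-/- replicate 1, of which the WT culture was higher by 0.720 CPM. The mean was 392 ± 59.5 CPM for WT against 472 ± 34.3 CPM for *Plxnb1*-/- SCs (SD, n = 3), which gave a log2 change of 0.27 (standard error 0.10, 95% interval 0.03 to 0.50, adjusted p = 0.324 from edgeR). With 1 culture left out the log2 fold change lay between 0.15, without WT replicate 2, and 0.35, without WT replicate 1.

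*Erbb2*, the kinase partner of ErbB3, lies on the plus strand of chromosome 11 from 98412470 to 98437716. Its level was 151, 123 and 155 CPM for the WT replicates (1, 2 and 3) against 160.4, 177 and 187 CPM for the *Plxnb1*-/- replicates (1, 2 and 3). All *Plxnb1*-/- cultures lay above all WT cultures, by a small gap, with WT replicate 2 again the lowest. The mean was 143 ± 17.1 CPM for WT against 175 ± 13.3 CPM for *Plxnb1*-/- SCs (SD, n = 3), which gave a log2 change of 0.29 (standard error 0.09, 95% interval 0.09 to 0.49, adjusted p = 0.286 from edgeR and 0.0650 from DESeq2). With 1 culture left out it lay between 0.20, without WT replicate 2, and 0.35, without WT replicate 3. It was 0.14 without both WT replicate 2 and *Plxnb1*-/- replicate 3. DESeq2 called both *Erbb2* and *Erbb3* only when WT replicate 1 was left out, with adjusted p of 0.0285 and 0.0261.

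The levels of both partners were close to proportional in these cultures, with a Pearson's r of 0.98 between their log2 CPM. Such likeness was not particular to the pair, as r was above 0.95 for 606 genes with *Erbb2* and 646 with *Erbb3*. The ratio of *Erbb3* to *Erbb2*, each in CPM per kilobase of merged exons, was 2.48, 2.27 and 2.34 in WT replicates 1, 2 and 3 and 2.34, 2.37 and 2.31 in *Plxnb1*-/- replicates 1, 2 and 3. Its means were 2.37 ± 0.108 in WT and 2.34 ± 0.0302 in *Plxnb1*-/- SCs (SD, n = 3). The genotypes overlapped, and the difference in mean log2 ratio, -0.02, had p = 0.800 by an exact two-sided permutation test, where 3 cultures against 3 allow no value under 0.1.

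*Egfr*, the receptor of EGF, TGF-alpha and amphiregulin, lies on the plus strand of chromosome 11 from 16752203 to 16918158. The level was 104, 149 and 121 CPM for the WT replicates (1, 2 and 3) against 124, 107 and 95 CPM for the *Plxnb1*-/- replicates (1, 2 and 3). The genotypes overlapped, and WT replicate 2, the lowest culture for *Erbb2* and *Erbb3*, was the highest for *Egfr*. The log2 fold change was -0.20 (standard error 0.13, 95% interval -0.50 to 0.10, adjusted p = 0.538 from edgeR). It was -0.04 without WT replicate 2 and -0.31 without WT replicate 1 or without *Plxnb1*-/- replicate 1. WT replicate 2 had the most *Pdgfra*, 91.0 CPM, and *Thy1*, 652 CPM, which mark fibroblasts, whereas *Pdgfra* lay between 56.4 and 66.6 CPM and *Thy1* between 384 and 489.9 CPM in the others. It was also the highest culture for the fibroblast markers *Dcn* (320.4 CPM) and *Pi16* (1.23 CPM), but not for *Lum* and *Dpt*. *Lum* was at 43.8 CPM there and 48.5 CPM in *Plxnb1*-/- replicate 3. *Dpt* was at 0.683 CPM there, 0.781 CPM in WT replicate 1 and 0.721 CPM in *Plxnb1*-/- replicate 3. Over all 6 fibroblast markers, 5 were lower and 1 higher in *Plxnb1*-/- SCs, and none stood at 0. *Pdgfra* and *Thy1* were lower without overlap between the genotypes (10.4% of all tested genes in this direction). By edgeR or DESeq2 0 of the 6 were called, with 2 at an unadjusted p below 0.05 (13.7% of all tested genes). DESeq2 gave no adjusted p for *Dpt* and *Pi16*. All 7 SC markers had a positive log2 fold change, 4 of them without overlap (9.30% of all tested genes in this direction) and 6 at an unadjusted p below 0.05 (13.7% of all tested genes in either direction) but 0 called by edgeR or DESeq2, with a sum of 1930.4 to 2254 CPM in WT and 2288 to 2576 CPM in *Plxnb1*-/- SCs. Summed markers of macrophages and leukocytes (28.3 to 31.2 CPM in WT, 33.5 to 36.8 CPM in *Plxnb1*-/- SCs) and of neurons (141 to 155 CPM, 157 to 174 CPM) were also higher without overlap, with all 7 and all 6 markers positive. The same held for satellite glia (763 to 883 CPM, 906 to 933 CPM) and perineurial cells (213 to 219 CPM, 229 to 262 CPM), with 3 of 4 and 2 of 3 markers positive. Taken singly, 4 of 7 macrophage and 2 of 6 neuron markers were higher without overlap (9.30% of all tested genes). So were 1 of 4 satellite glia and 1 of 3 perineurial markers. *Tubb3* (mean 138 CPM in WT, 149 CPM in *Plxnb1*-/- SCs) made up most of the neuron sum. Most of the satellite glia sum was *Kcnj10* (704 CPM, 787 CPM). Of the perineurial markers *Itgb4* was higher without overlap (100 CPM, 134 CPM) and *Slc2a1* lower with overlap (110.4 CPM, 102 CPM). Fewer cells of a type and less RNA per cell cannot be told apart in bulk samples, and the part of the cell mixture in the values of *Nrg1* and the receptors was not tested.

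**Figure D2:**
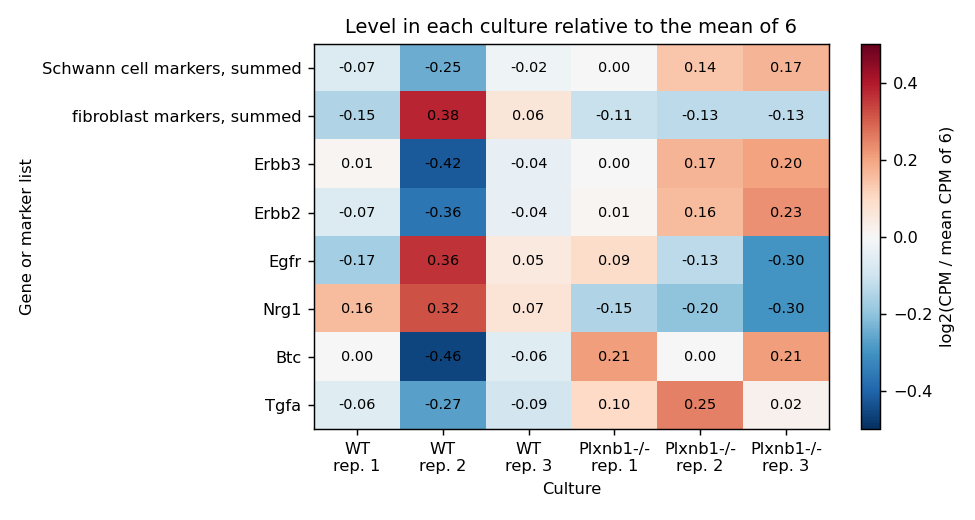
Level in each culture as log2 of its CPM over the mean of the 6 cultures, for the summed SC markers, the summed fibroblast markers and 6 genes of the set, with blue below and red above the mean. WT replicate 2 is at -0.42 for *Erbb3*, -0.36 for *Erbb2*, 0.36 for *Egfr* and 0.38 for the fibroblast markers.

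*Btc*, which encodes betacellulin, was the second EGF ligand by level. The cultures held it at 65.6, 47.7 and 63.2 CPM for the WT replicates (1, 2 and 3) against 76.1, 65.9 and 75.8 CPM for the *Plxnb1*-/- replicates (1, 2 and 3). All *Plxnb1*-/- cultures were higher, but *Plxnb1*-/- replicate 2 barely so. The mean was 58.8 ± 9.67 CPM for WT against 72.6 ± 5.81 CPM for *Plxnb1*-/- SCs (SD, n = 3), which gave a log2 change of 0.30 (standard error 0.11, 95% interval 0.05 to 0.55, adjusted p = 0.308 from edgeR and 0.125 from DESeq2). With 1 culture left out it lay between 0.18, without WT replicate 2, and 0.39, without WT replicate 1.

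*Tgfa*, which encodes TGF-alpha, a ligand of EGFR, was among the low members. Its level was 5.83, 5.07 and 5.73 CPM for the WT replicates (1, 2 and 3) against 6.53, 7.23 and 6.19 CPM for the *Plxnb1*-/- replicates (1, 2 and 3). The genotypes did not overlap, and the log2 fold change was 0.26 (standard error 0.10, 95% interval 0.04 to 0.48, adjusted p = 0.310 from edgeR). Unlike that of *Btc*, it moved little without WT replicate 2, to 0.21.

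*Hbegf*, which encodes the membrane-anchored heparin-binding EGF-like factor, was the most abundant ligand. The level was 458, 429 and 447 CPM for the WT replicates (1, 2 and 3) against 439.6, 441 and 416 CPM for the *Plxnb1*-/- replicates (1, 2 and 3). The genotypes overlapped, and the cultures lay close together, with means of 445 ± 14.7 CPM for WT against 432 ± 13.9 CPM for *Plxnb1*-/- SCs (SD, n = 3). The log2 fold change was -0.04, and its 95% interval of -0.14 to 0.06 leaves out a change of 0.25, the cutoff on the fold change, in either direction (adjusted p = 0.729 from edgeR).

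*Areg*, *Ereg* and *Btc* lie in 1 cluster on chromosome 5 with *Epgn*, another EGF ligand, over 376 kb. *Areg*, which encodes amphiregulin, is read from the plus strand from 91139599 to 91148432, and the 250 bases before its start site are shown because the cultures contained forskolin and the window holds a cyclic AMP response element, the site bound by CREB. The sequence is the plus strand of chr5:91139349-91139598 of GRCm38.p6, from RefSeq, and capitals mark this element, TGACGTCA, which starts 61 bases before the start site, and a TATA box, TATAAA, which starts 31 bases before it.
Areg: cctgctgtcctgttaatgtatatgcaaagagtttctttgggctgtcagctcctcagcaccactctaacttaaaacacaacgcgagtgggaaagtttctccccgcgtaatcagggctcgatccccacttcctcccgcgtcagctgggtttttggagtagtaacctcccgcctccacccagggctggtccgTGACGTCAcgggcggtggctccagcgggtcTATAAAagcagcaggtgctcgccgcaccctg
Of 32817 RefSeq windows of the same length, 1.55% hold TGACGTCA, which reads the same on both strands, and 12.4% hold TATAAA on either strand. The windows of *Btc*, *Tgfa*, *Egfr* and *Erbb2*, the other members of the set whose windows were examined, hold neither of these motifs, nor the Sox-type core ACAAAG, which 16.5% of all windows hold on either strand. A match describes letters and is not evidence of binding.

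*Areg* stood at 5.00, 5.52 and 3.74 CPM for the WT replicates (1, 2 and 3) against 5.14, 4.53 and 4.31 CPM for the *Plxnb1*-/- replicates (1, 2 and 3). The *Plxnb1*-/- cultures lay inside the range of the WT cultures, and the log2 fold change was -0.02 (standard error 0.15, 95% interval -0.36 to 0.31, adjusted p = 0.958 from edgeR). *Ereg*, which encodes epiregulin, stood at 4.30, 4.72 and 4.11 CPM for the WT replicates (1, 2 and 3) against 5.38, 3.59 and 3.42 CPM for the *Plxnb1*-/- replicates (1, 2 and 3). Here *Plxnb1*-/- replicate 1 was the highest of the 6 and the other *Plxnb1*-/- cultures the lowest, so that the log2 fold change of -0.08 (95% interval -0.47 to 0.31, adjusted p = 0.878 from edgeR) became -0.32 without *Plxnb1*-/- replicate 1. The intervals of both genes include changes of 0.25 and more, so these cultures do not exclude differences of that size.

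**Figure D3:**
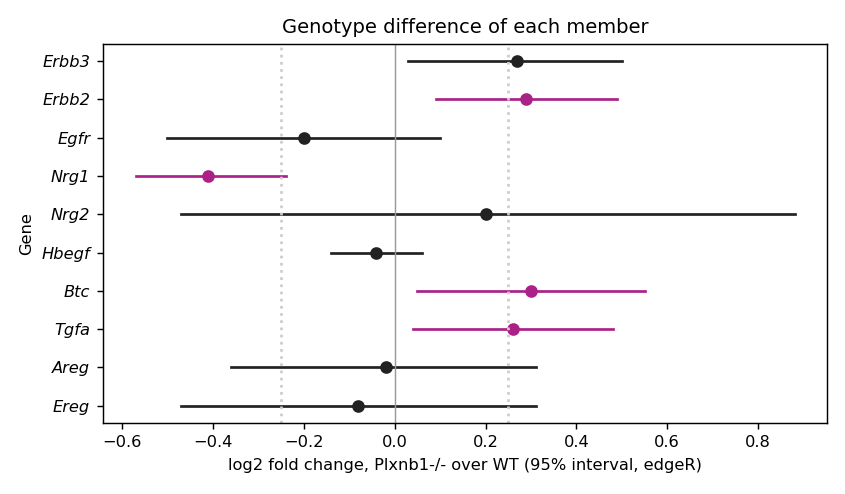
Log2 fold change of *Plxnb1*-/- over WT for each gene (point) with its 95% interval from edgeR's fit (line), in purple where the genotypes do not overlap, and dotted lines at the cutoff of 0.25 in each direction. The interval of *Nrg1* runs from -0.57 to -0.24, and those of *Erbb2*, *Erbb3*, *Btc* and *Tgfa* lie above 0.

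**Figure D4:**
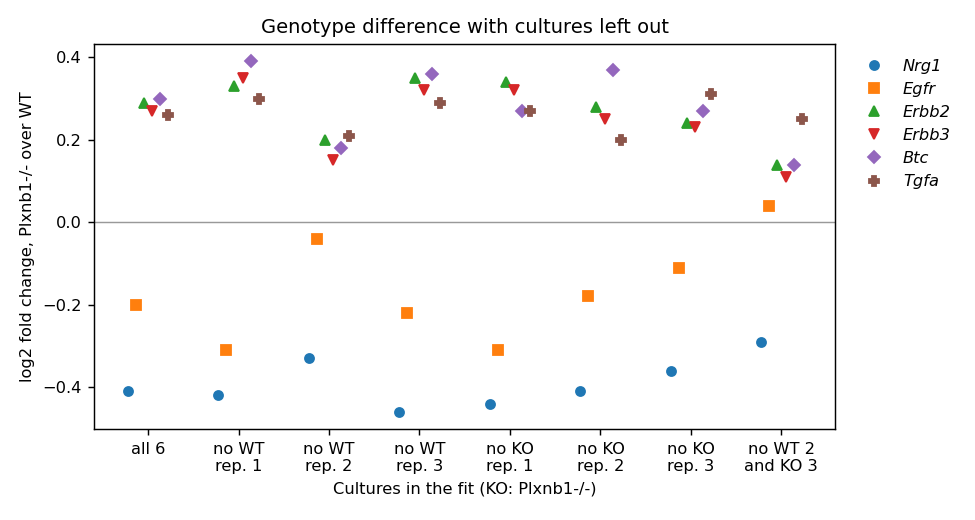
Log2 fold change of *Plxnb1*-/- over WT of 6 genes in edgeR's fit with all cultures, with each culture left out and with 2 left out; KO stands for *Plxnb1*-/-. *Nrg1* stays below 0 in every fit, from -0.46 to -0.29, whereas *Egfr* reaches -0.04 without WT replicate 2 and 0.04 without both cultures.

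Per kilobase of merged exons, the scale used here to set genes beside each other, the order of levels was *Hbegf*, *Erbb3*, *Erbb2*, *Btc*, *Egfr*, *Areg*, *Nrg1*, *Ereg*, *Tgfa* and *Nrg2*. *Hbegf* stood at 92.0 ± 3.05 CPM per kilobase in WT and 89.4 ± 2.87 in *Plxnb1*-/- SCs, and *Erbb3* at 65.1 ± 9.89 and 78.4 ± 5.71 (SD, n = 3). *Erbb2* followed at 27.5 ± 3.29 and 33.5 ± 2.56, and *Nrg1* was at 2.52 ± 0.225 and 1.90 ± 0.102. In 2 pairs of neighbours the ranges over the 6 cultures overlapped, *Btc* with *Egfr*, where *Btc* was higher in 5 of 6 cultures, and *Ereg* with *Tgfa*, where *Ereg* was higher in 4 of 6. The other neighbours within the set kept their order in every culture. Merged exons cover all annotated transcripts, so a gene with many forms such as *Nrg1* is set lower than its main transcript would be. The aligner did not span introns, so reads across exon junctions can be lost, to a degree that differs between genes. How far this shifts the order and the shares on this scale was not tested.

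Of the summed level of the 4 ErbB receptors on this scale, *Erbb3* held between 59.3% and 65.4% in the 6 cultures, *Erbb2* between 26.1% and 28.2% and *Egfr* between 6.61% and 14.5%. *Erbb4*, the other neuregulin receptor with kinase activity, held at most 0.0381%, with 18 to 25 counts per library. Among 7 EGF ligands, *Hbegf* held 82.8% ± 0.842 in WT and 80.1% ± 1.24 in *Plxnb1*-/- SCs, and *Btc* 11.7% ± 1.48 and 14.4% ± 1.24 (SD, n = 3). Among the 4 neuregulins, *Nrg1* held 75.3% ± 3.70 in WT and 70.0% ± 0.799 in *Plxnb1*-/- SCs, and *Nrg4*, which binds ErbB4, held 19.3% ± 2.75 and 22.4% ± 0.767. *Egf* and *Epgn* had at most 70 and 36 counts in a library and *Nrg3* at most 16. None of these 5 other members of the families was separated by genotype or called, with log2 fold changes between -0.15 and 0.03, and the lowest adjusted p among them was 0.756 from edgeR. None had an unadjusted p below 0.05. DESeq2 gave an adjusted p for *Nrg4* alone, 0.858, and none for the other 4.

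The deposited FPKM values, which divide by the span of the gene with its introns, compare cultures within a gene. *Erbb3* averaged 17.6 ± 2.79 FPKM for WT against 21.4 ± 1.41 FPKM for *Plxnb1*-/- SCs (SD, n = 3). On this scale its genotypes did not overlap, but the gap was narrow. WT replicate 1 was at 19.6 FPKM and *Plxnb1*-/- replicate 1 at 19.8 FPKM. In CPM, which use TMM-scaled library sizes, this WT culture was the higher one, by 0.72 CPM. The reason for this turn was not tested, and the share of all tested genes without overlap in FPKM was not determined. On log2(FPKM + 0.1), the exact permutation test (two-sided) gave p = 0.1, the smallest value 3 against 3 allows, for *Nrg1*, *Erbb2*, *Erbb3*, *Btc* and *Tgfa*. Genotypes without overlap always give this value. For *Nrg1*, *Erbb2*, *Btc* and *Tgfa* it therefore repeats the separation in CPM (19.7% of all tested genes) and is no further support. For *Erbb3* it rests on the narrow gap in FPKM, which was absent in CPM. For *Nrg1*, whose FPKM of 0.0242 ± 0.00202 in WT and 0.0184 ± 0.00110 in *Plxnb1*-/- SCs is far under the pseudocount, the difference in log2(FPKM + 0.1) was -0.07, and the log2 ratio of its mean FPKM was -0.39.

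Beyond the set, 79 genes in 5 lists around the receptors were looked up in the same fit, and all 79 were tested. Of these, edgeR called 0 and DESeq2 called 4, with 2 higher and 2 lower, where DESeq2 called 1.50% of all tested genes. An unadjusted p below 0.05 was found for 29 of the 79, against 13.7% of all tested genes. In 32 of the 79 the genotypes did not overlap, against 19.7% of all tested genes. Of these, 21 had the *Plxnb1*-/- cultures higher (9.30% of all tested genes) and 11 had them lower (10.4%). The lists were chosen with earlier results of these data known, so these counts describe the lists and are no test. All tested genes also include genes with counts as low as the filter allows. The median log2 fold change of the 79 genes was 0.01.

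Sheddases and processing factors release EGF ligands and neuregulins from the membrane. Of 11 such genes, 6 had a positive and 5 a negative log2 fold change (median 0.08), 6 had an unadjusted p below 0.05 (13.7% of all tested genes), 7 were separated by genotype (19.7%), and DESeq2 called 1 (1.50%). This was *Bace2*, a relative of the protease BACE1 that cuts neuregulin-1, which averaged 6.34 ± 0.119 CPM for WT against 7.98 ± 0.252 CPM for *Plxnb1*-/- SCs (SD, n = 3; log2 fold change 0.33, adjusted p = 0.266 from edgeR and 0.0358 from DESeq2). *Bace1* itself, named after its values were seen, averaged 132 ± 3.96 CPM for WT against 131 ± 0.557 CPM for *Plxnb1*-/- SCs. Its genotypes overlapped (log2 fold change -0.01, adjusted p = 0.932 from edgeR). *Rhbdf1*, an inactive rhomboid that helps ADAM17 to the cell surface, was separated upward at 0.18. Of the metalloproteases, *Adam12* had a log2 fold change of -0.13 and *Adam19* of -0.22, with adjusted p of 0.301 and 0.305 from edgeR, the second with overlap. *Adam10*, *Adam9* and *Adam17*, named after their values were seen, had positive log2 fold changes of 0.19, 0.11 and 0.08 without overlap, with adjusted p of 0.348, 0.365 and 0.465 from edgeR.

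Adaptors and cascades carry the signal from the receptors to ERK, AKT and the cytoskeleton. Their 30 genes were split evenly, with 15 positive and 15 negative log2 fold changes between -0.19 and 0.18 (median 0.00), and 0 were called by edgeR or DESeq2, with 5 at an unadjusted p below 0.05 (13.7% of all tested genes) and 8 separated by genotype (19.7%). Among the genes with the lowest p in each direction were *Pik3r1*, the regulatory subunit of PI3K, at 0.18, *Plcg1*, a phospholipase, at -0.19, and *Ptk2*, focal adhesion kinase, at -0.11, with adjusted p between 0.299 and 0.346 from edgeR. In each of these 3 genes the genotypes did not overlap.

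Turnover and feedback genes limit ErbB signals. Of 18 such genes, 10 had a positive and 8 a negative log2 fold change (median 0.03), 9 had an unadjusted p below 0.05 (13.7% of all tested genes) and 8 were separated by genotype (19.7%). DESeq2 called 1 of them (1.50% of all tested genes), *Errfi1*, which encodes MIG6, an inhibitor that binds the kinase domains of EGFR and ErbB2. It averaged 171 ± 18.8 CPM for WT against 138 ± 12.5 CPM for *Plxnb1*-/- SCs (SD, n = 3), with all *Plxnb1*-/- cultures lower (log2 fold change -0.31, adjusted p = 0.273 from edgeR and 0.0364 from DESeq2). *Spry4*, a Sprouty inhibitor of ERK signaling, was separated upward with 26.2 ± 2.30 CPM for WT against 31.1 ± 1.69 CPM for *Plxnb1*-/- SCs (log2 fold change 0.25, adjusted p = 0.273 from edgeR). *Socs5*, which promotes the breakdown of EGFR, had a log2 fold change of 0.14, and *Dusp5*, a phosphatase of ERK, of -0.21, with adjusted p of 0.285 and 0.330 from edgeR.

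Of 15 transcripts that respond to ERK, 9 had a positive and 6 a negative log2 fold change (median 0.11), 9 had an unadjusted p below 0.05 (13.7% of all tested genes), and DESeq2 called 1 in each direction (0.690% higher and 0.811% lower). *Junb*, an AP-1 subunit, averaged 136 ± 9.80 CPM for WT against 113 ± 5.19 CPM for *Plxnb1*-/- SCs (SD, n = 3; log2 fold change -0.26, adjusted p = 0.266 from edgeR and 0.0167 from DESeq2). *Etv1*, an ETS transcription factor, averaged 8.36 ± 0.853 CPM for WT against 10.7 ± 0.662 CPM for *Plxnb1*-/- SCs (log2 fold change 0.36, adjusted p = 0.273 from edgeR and 0.0360 from DESeq2). Its relative *Etv5* was at 0.18 and *Myc* at -0.14, both without overlap between the genotypes and with adjusted p of 0.273 and 0.301 from edgeR. The list thus held separated genes in both directions, 6 higher (9.30% of all tested genes) and 3 lower (10.4%).

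**Figure D5:**
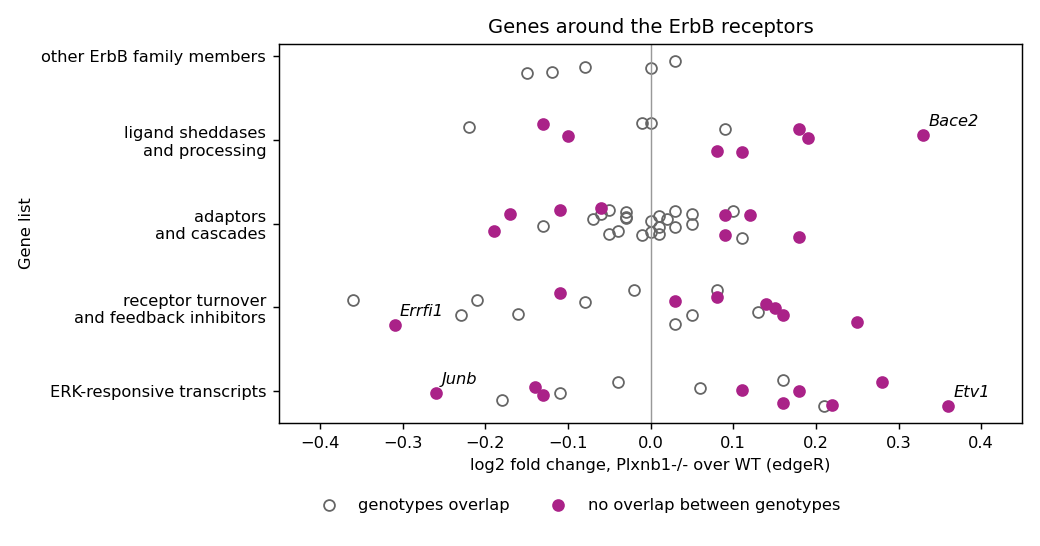
Log2 fold change of *Plxnb1*-/- over WT for the 79 genes of 5 lists, with 1 point per gene, filled in purple where the genotypes do not overlap and open where they do; vertical offsets within a list have no meaning. The 4 named genes, *Bace2*, *Errfi1*, *Junb* and *Etv1*, are those that DESeq2 called.

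Among 14992 genes with a mean above 1 CPM, the genes whose log2 CPM followed *Erbb3* most closely over the 6 cultures were *Patz1*, *Sox2ot* and *Prdm16* (Pearson's r 0.9992 to 0.9982), and those closest to *Erbb2* were *Tuba8*, *Celsr2* and *Dhh* (0.9974 to 0.9971). Closest to *Nrg1* were AC121967.1, *Mn1* and *Fam114a1* (0.9983 to 0.9974), and to *Egfr*, *Mrrf*, *Pmaip1* and *Sgsh* (0.9968 to 0.9919). With 6 points many genes come this close, and r was above 0.95 for 646 genes with *Erbb3*, 606 with *Erbb2*, 245 with *Nrg1* and 107 with *Egfr*, so these names only describe the pattern across libraries.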

How the data were processed

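RNA-seq libraries of 3 WT and 3 *Plxnb1*-/- SC cultures were analysed. The authors trimmed reads with Trim Galore 0.6.5, aligned them to mm10 with Bowtie2 2.4.1, which does not span introns, removed duplicates with SAMtools 1.10 and counted reads on exons with featureCounts. The values deposited are these raw counts and FPKM values. The length behind the FPKM is the gene span in 99.5% of genes, so it compares samples and not genes. The kit was stranded; the strand setting of the counting and the sex are not given in the sources used here.

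Symbols, positions and merged exon lengths came from GENCODE vM21 (GRCm38), which matched 55141 of 55401 identifiers. The authors used a later release. Genes with a count of 2 or more in 5 or more libraries were kept. Genotypes were compared with edgeR 4.0.16 (TMM, quasi-likelihood, R 4.3.3), with Benjamini-Hochberg adjustment over 22318 genes. CPM use TMM-scaled library sizes, and standard errors come from edgeR's F statistic. DESeq2 1.42.0 and limma 3.58.1 were alternatives, as were other scalings, filters, a replicate term and each library left out; DESeq2 with left-out libraries and the fit without 2 libraries were added after seeing the data. The scripts were tested on simulated counts.

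The 10 genes and the lists were chosen with earlier results of these data known. Named are the 10 genes, *Plxnb1*, the other ErbB family members, the 2 genes of lowest p in each direction of a list, the 3 genes most like 4 of the members, and cell type markers. A gene that this rule names among the adaptors is not reported here. In all, 9 marker lists were examined: beside those of SCs, fibroblasts, macrophages, neurons, satellite glia and perineurial cells, those of mural (3 of 4 with a positive log2 fold change, summed 95.5 to 128 CPM), endothelial (1 of 4, 57.1 to 76.2 CPM) and epithelial cells (3 of 4 markers at or under 3 counts). Of all these markers edgeR called 0 and DESeq2 called 1 perineurial (*Itgb4*, log2 fold change 0.42) and 1 macrophage marker (*Cx3cr1*, 0.49), both higher in *Plxnb1*-/- SCs.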

Additional observations from a re-analysis of the deposited data

How the results depend on the processing

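edgeR called 0 of the 10 genes, 0 of the 79 pathway genes and 8 of all genes. With DESeq2 these numbers were 1, 4 and 335, and without a filter on low counts 1, 2 and 296; the gene of the set was *Nrg1* each time. limma on log2(FPKM + 0.1) called 3 genes in all, and leaving out 1 culture in edgeR gave 4 to 25, with 25 without WT replicate 2, 5 without *Plxnb1*-/- replicate 1 and 4 without *Plxnb1*-/- replicate 2 or 3. Without both WT replicate 2 and *Plxnb1*-/- replicate 3 there were 33, none in the set. DESeq2 with 1 culture left out called 0 to 4 genes of the set, 4 without WT replicate 1 (*Nrg1*, *Erbb2*, *Erbb3* and *Btc*) and 0 without *Plxnb1*-/- replicate 3. A term for the replicate number, the replicate block, called 5 genes in all and none of the set. For same-numbered cultures, r of their deviations from the genotype means was -0.0218, 0.00782 and 0.0653. It ran from -0.053 to 0.0485 for cultures with different numbers. Such values cannot show whether cultures were prepared in pairs, which the sources used here do not say. The cause of the shifts in the number of called genes was not tested.

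Directions of genes near no difference turned. With 1 culture left out, *Areg* ran from -0.17 to 0.10, *Ereg* from -0.32 to 0.04 and the log2 ratio of *Erbb3* to *Erbb2* from -0.0452 to 0.0192. On the FPKM scale the ranges were -0.0606 to 0.00124 for *Hbegf*, -0.139 to 0.0895 for *Areg* and -0.211 to 0.0229 for *Ereg*. Without both cultures, *Egfr* was at 0.04, *Areg* at 0.15 and *Ereg* at 0.10. *Nrg1*, *Erbb2*, *Erbb3*, *Btc*, *Tgfa* and *Hbegf* kept their direction in the edgeR fits, in DESeq2 with all cultures and in limma. *Plxnb1* stayed between -2.42 and -1.74, and its adjusted p rose above 0.05 with robust dispersion (0.220), limma on FPKM (0.413), the stricter filter (0.0812) and 4 of the 6 fits with a culture left out. Scaling moved the median of all genes by less than 0.01 (log2). Counting error is widest for *Nrg2*, *Nrg3*, *Erbb4* and *Epgn*, which had 3 to 53 counts per library.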
